A study of Arabidopsis thaliana with 17 samples.

Results

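The genes described here encode 9 methyl-CpG-binding domain (MBD) proteins of Arabidopsis thaliana, MBD1, MBD2, MBD4, MBD5, MBD6, MBD7, MBD9, MBD10 and MBD11, out of 37336 features in each deposited table. They were taken by their locus identifiers. The family was chosen by the measured values of MBD10, which had already stood out between bamboo and its wild type. Every bamboo and Col-0-b value of these 9 genes is therefore a description and none carries a test. RNA-seq libraries of whole roots from 14-day-old, mock-treated plants were used. They came from bamboo (2 libraries, numbered 2 and 3 in the labels), from its wild-type set Col-0-b (3 libraries) and from another wild-type group named Col-0 (3 libraries); both wild-type sets carry the genotype Col-0. The name of the deposited bamboo data holds the letters KD, a common short form of knockdown. The sources read do not otherwise give the way in which the long non-coding RNA BAMBOO is altered in bamboo. Whether more than a single line was used is not given either. The labels do not say whether replicates came from separate cultures, so the spread between libraries may be technical.

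MBD proteins share a domain that in animals reads methylated CpG sites and brings in repressive partners. In Arabidopsis only some members bind methylated CpG in vitro. MBD5, MBD6 and MBD7 do, MBD5 and MBD6 as silencing factors and MBD7 as a factor tied to active DNA demethylation. MBD10 was linked, with MBD6, to the silencing of ribosomal RNA genes in nucleolar dominance, shown in the hybrid species Arabidopsis suecica. MBD9 acts with the chromatin remodeller that deposits the histone variant H2A.Z. MBD1, MBD2 and MBD4 have been found with the histone deacetylase HDA6.

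Depth ran from 16963843 to 24333119 reads in the bamboo and Col-0-b libraries and from 13637179 to 21206367 in Col-0. Each of the 9 genes passed the minimum level and had from 67 reads (MBD5, Col-0-b replicate 2) to 2846 reads (MBD10, Col-0 replicate 2) in a library. Counting error alone was at most 3.69% for MBD10 and up to 12.2% for MBD5. The 10 root markers summed to 446 to 511 CPM (read counts scaled by the library total) in all 8 libraries and none was at 0 throughout a set. The 6 shoot markers summed to 25.4 to 34.3 CPM in Col-0, 38.1 to 97.2 in Col-0-b and 55.7 to 57.0 in bamboo. In whole roots, fewer cells of a type and less RNA per cell cannot be told apart.

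MBD10 (AT1G15340) was higher in both bamboo libraries than in any Col-0-b library. Its normalized counts were 1400 and 1295 in bamboo replicates 2 and 3, and 887, 906 and 811 in Col-0-b replicates 1, 2 and 3. The gap between the groups was wider than the whole range within either of them. The mean rose from 868 ± 50.2 (SD, n = 3) to 1347 ± 74.4 (SD, n = 2), a ratio of 1.55 and a log2 fold change of 0.63 (SE 0.08). Each bamboo library taken alone lay above the Col-0-b mean, replicate 2 by 0.69 and replicate 3 by 0.58 on the log2 scale.

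In the limma fit over all features (adjusted p under 0.05), MBD10 was the 1 member of 9 called, as higher in bamboo, and 0 were called lower; without Col-0-b replicate 1 the count was 0, with MBD10 at a log2 fold change of 0.65. Across all 20274 features tested, 0.0691% were called higher and 0.0641% lower. The values of MBD10 led to the choice of the family, so that count is no test of it and nothing is read from it. Libraries of the genotypes did not overlap for 2 of the 9 members, MBD10 and MBD11, both with bamboo above, against 17.1% of all features with bamboo above and 17.5% with bamboo below. The median log2 fold change of the members was 0.06, with 5 above 0 and 4 below, while that of all features was 0.00.

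**Figure D1:**
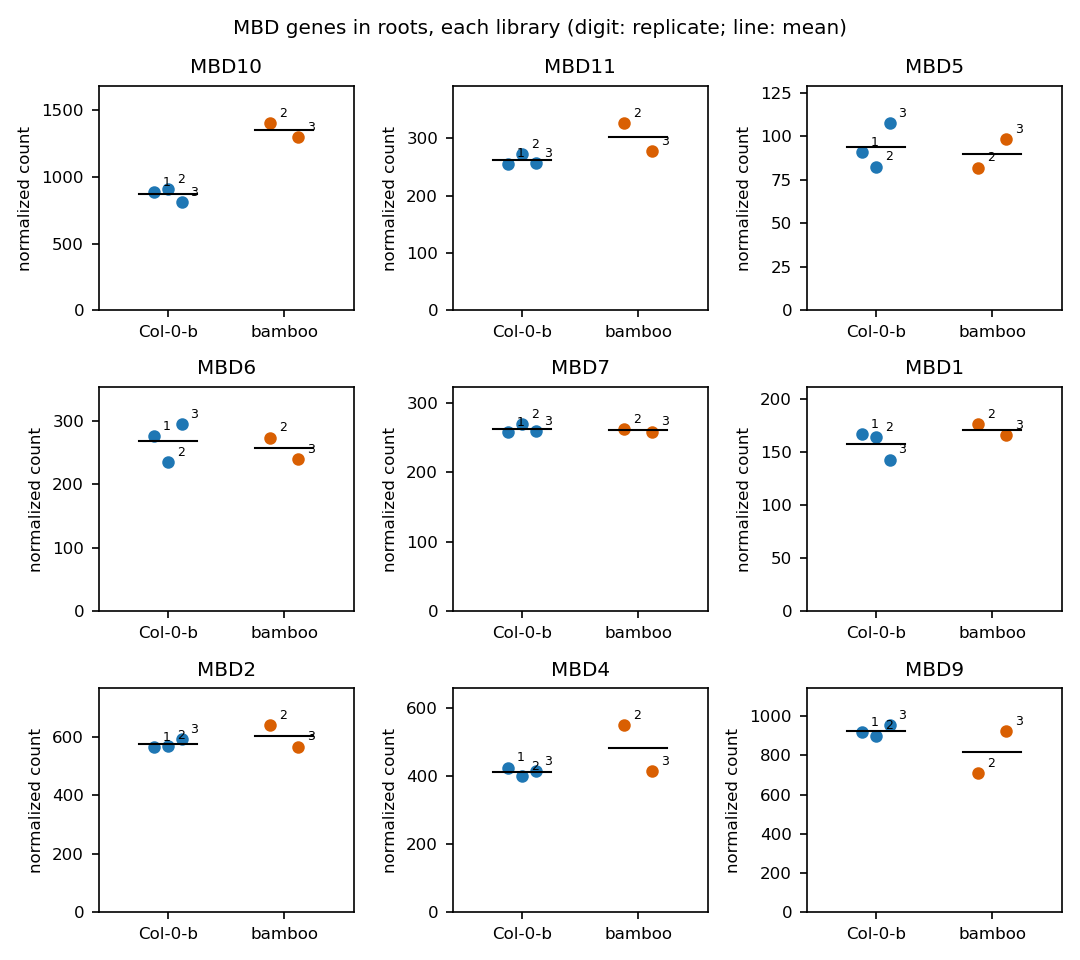
Normalized counts (vertical axes, each from 0) of the 9 MBD genes in every Col-0-b and bamboo library; points are libraries, digits are replicate numbers and lines are group means. MBD10 lies at 811 to 906 in Col-0-b and at 1295 and 1400 in bamboo, while bamboo replicate 2 alone lies apart for MBD4 (549) and MBD9 (711).

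MBD11 (AT3G15790) is a member whose silencing was reported to disturb development of aerial organs. It had 326 and 278 normalized counts in bamboo replicates 2 and 3, and 256, 272 and 257 in Col-0-b replicates 1, 2 and 3. Bamboo replicate 3 stood just above the highest Col-0-b library, and bamboo replicate 2 farther above it. Its log2 fold change was 0.20 (SE 0.11), about as large as that of MBD4 and smaller than that of MBD10. Reads of MBD10 per read of MBD11 are a ratio within a library that no scaling between libraries alters. That ratio was 3.47, 3.33 and 3.16 in Col-0-b replicates 1, 2 and 3, and 4.29 and 4.66 in bamboo replicates 2 and 3. The ratio was thus higher in both bamboo libraries than in any Col-0-b library. In Col-0 it ran from 4.56 (replicate 3) to 5.17 (replicate 2). Bamboo replicate 3 lay inside that wild-type range and bamboo replicate 2 below it, so a high ratio was not particular to bamboo. The ratio uses the MBD10 values that led to the choice of the family, so it is a description. How often other gene pairs differ in this way was not tested.

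The 3 members that bind methylated CpG lay close to the wild type. MBD5 (AT3G46580) had 82.0 and 98.3 normalized counts in bamboo and 90.9, 82.6 and 107 in Col-0-b. MBD6 (AT5G59380) had 273 and 240 in bamboo and 276, 234 and 294 in Col-0-b. MBD7 (AT5G59800) had 262 and 258 in bamboo and 258, 269 and 259 in Col-0-b. For all 3 genes the groups overlapped, with log2 fold changes of -0.05 (SE 0.18), -0.06 (SE 0.13) and -0.01 (SE 0.10). MBD7 had the smallest spread in Col-0-b of the 9 genes as a log2 level, an SD of 0.02 in log2(CPM + 1). The signs of these 3 small values changed when single libraries were left out.

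Among the members found with HDA6, MBD1 (AT4G22745) had 176 and 166 normalized counts in bamboo and 167, 164 and 143 in Col-0-b, a log2 fold change of 0.12 (SE 0.13). MBD2 (AT5G35330) had 638 and 566 in bamboo and 565, 569 and 591 in Col-0-b, a log2 fold change of 0.06 (SE 0.09). Both overlapped between the groups. MBD4 (AT3G63030) had 549 in bamboo replicate 2 but 415 in bamboo replicate 3, against 425, 399 and 416 in Col-0-b. Its log2 fold change of 0.21 (SE 0.12) came from 1 library, since the other bamboo library was inside the wild-type range (0.41 and 0.01 above the Col-0-b mean).

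MBD9 (AT3G01460), the member that works with H2A.Z deposition, had 711 normalized counts in bamboo replicate 2 and 924 in replicate 3, against 917, 901 and 953 in Col-0-b. Only replicate 2 left the wild-type range, by -0.38 against the Col-0-b mean, while replicate 3 was at 0.00. The fitted log2 fold change was -0.19 (SE 0.10). In the gene table used for names, MBD9 overlaps HB-1 (3602 to 5308 reads a library) and MBD2 overlaps AT5G35320 (433 to 663 reads), so their counts are uncertain if the counting ignored strand. MBD10 and MBD11 overlap no other listed gene.

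**Figure D2:**
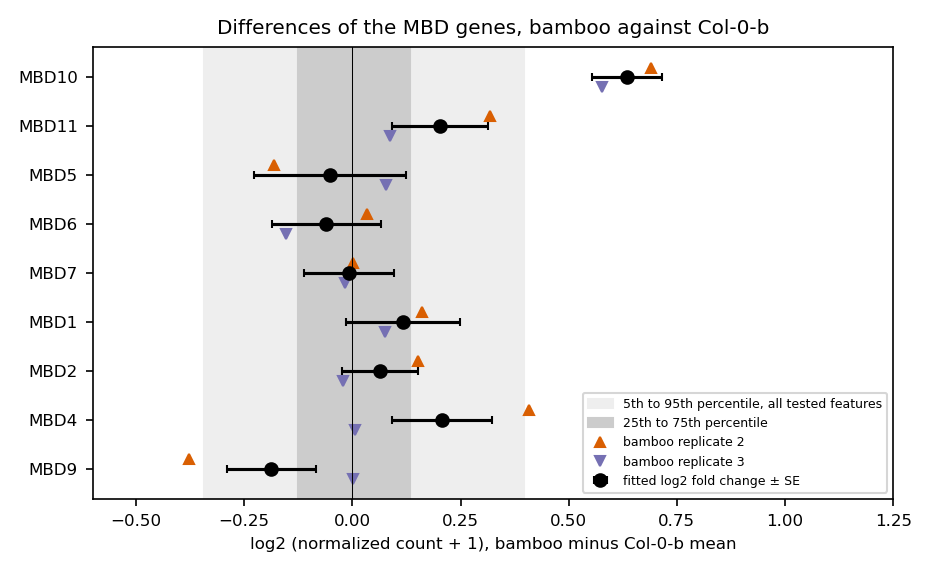
Difference of each MBD gene between bamboo and Col-0-b in log2(normalized count + 1) (horizontal axis); black points are fitted fold changes with SE, triangles are the single bamboo libraries, and grey bands are the 5th to 95th and 25th to 75th percentiles of all 20274 tested features. Both bamboo libraries of MBD10 (0.69 and 0.58) lie outside the wider band, which ends at 0.40, whereas those of MBD4 and MBD9 fall far apart from each other.

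The second wild-type set gave a wider range of MBD10 than bamboo did. Col-0 came in a separate table of raw counts, so all sets were put on CPM and no test was made between tables; the wild-type set and the table cannot be told apart. Both comparisons in this account also share the Col-0-b libraries. MBD10 was at 128, 134 and 142 CPM in Col-0 replicates 1, 2 and 3. It was at 42.8, 43.3 and 39.1 CPM in Col-0-b replicates 1, 2 and 3, and at 66.0 and 62.8 CPM in bamboo replicates 2 and 3. The order of levels was therefore Col-0, bamboo, Col-0-b, with no overlap between neighbours. The Col-0 mean was 3.23 times that of Col-0-b, while 1.55% of all tested features were at least 3-fold higher in Col-0. The Col-0-b values of MBD10 took part in the choice of the family, so that share is a description and no test.

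MBD11 and MBD5 were also at least 2-fold higher in Col-0 than in Col-0-b, which makes 3 of 9 members with MBD10, against 4.84% of all tested features. That count includes MBD10, by which the family was chosen, so it is likewise a description and nothing is read from it. MBD11 had 25.6, 25.9 and 31.2 CPM in Col-0 and 12.3, 13.0 and 12.4 in Col-0-b, a ratio of 2.19, and bamboo lay in between but near Col-0-b at 15.4 and 13.5. MBD5 had 12.4, 8.72 and 8.36 CPM in Col-0 and 4.39, 3.95 and 5.18 in Col-0-b, a ratio of 2.18. Bamboo overlapped Col-0-b for MBD5, at 3.87 and 4.77 CPM.

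MBD1 and MBD6 were moderately higher in Col-0, at ratios of 1.49 and 1.41, with no overlap. MBD1 ran from 9.97 to 12.9 CPM in Col-0 and from 6.90 to 8.05 in Col-0-b. MBD6 ran from 16.3 to 19.6 CPM in Col-0 and from 11.2 to 14.2 in Col-0-b. MBD7 and MBD2 went the other way. MBD7 ran from 8.12 to 9.61 CPM in Col-0, below its 12.4 to 12.9 in Col-0-b (ratio 0.713), and bamboo was at 12.3 and 12.5. MBD2 ran from 24.0 to 25.7 CPM in Col-0 and from 27.2 to 28.5 in Col-0-b (ratio 0.889).

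MBD4 and MBD9 overlapped between the wild-type sets. MBD4 ran from 20.3 to 26.4 CPM in Col-0 and from 19.1 to 20.5 in Col-0-b, and MBD9 from 40.1 to 57.9 and from 43.1 to 46.0. In all, 5 members lay wholly above Col-0-b in Col-0, 2 wholly below and 2 overlapped, against 26.9% of all features above and 26.0% below. These counts include MBD10 and are a description too. The median log2 difference between the sets was 0.46 over the members and 0.00 over all features. It was 0.39 over the 2 other MBD genes tested and 0.32 over the partners of MBD proteins, so a higher median in Col-0 was not particular to the members. It was 0.02 over genes that write DNA methylation and 0.09 over those that remove or read it. Of the 45 tested genes of these 4 lists, 0 were at least 2-fold higher in Col-0.

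**Figure D3:**
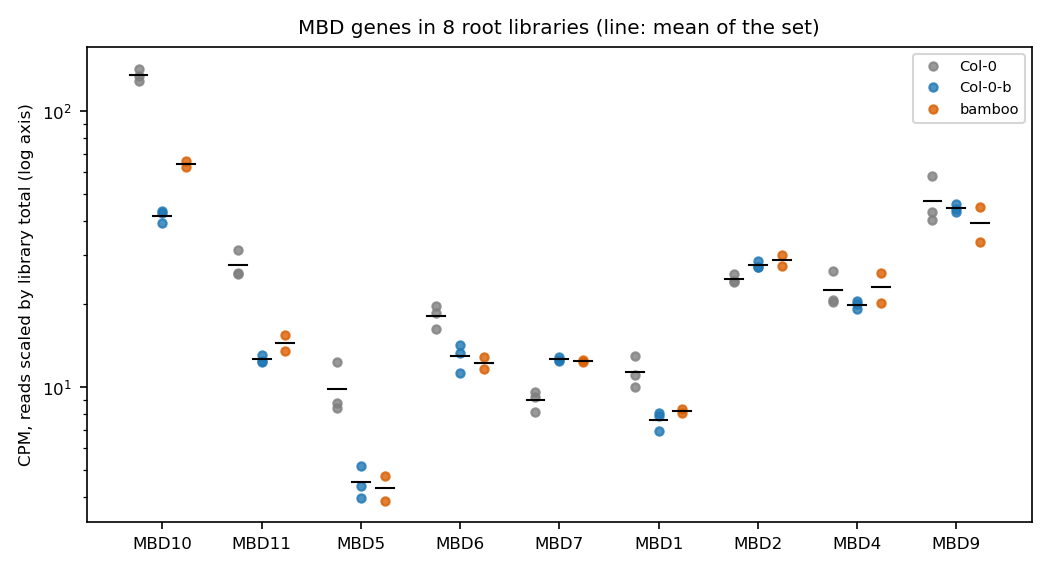
CPM, labelled as reads scaled by library total (log axis), of the 9 MBD genes in the 8 root libraries of Col-0, Col-0-b and bamboo; points are libraries and lines are set means. Levels are not corrected for gene length, so heights compare sets within a gene and not genes. MBD10 spans 39.1 to 142 CPM across the sets, and MBD7 is lower in Col-0 (8.12 to 9.61) than in the other sets, whereas MBD5, MBD10 and MBD11 are higher there.

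MBD10 accounted for much of how the family's reads differed between sets. The 9 genes summed to 182 to 185 CPM in Col-0-b, 206 to 208 in bamboo and 289 to 328 in Col-0. Without MBD10 the other 8 genes summed to 138 to 146 CPM in Col-0-b and 142 to 143 in bamboo, so that bamboo fell inside the Col-0-b range, and to 161 to 186 in Col-0. MBD10 held 21.2% to 23.9% of the family's reads in Col-0-b, 30.5% to 31.7% in bamboo and 43.4% to 45.2% in Col-0. The family was chosen by the values of MBD10, so its part in these sums is a description and no finding about the family.

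Of the 4 MBD genes outside the set, MBD8 and MBD13 were tested and neither was called. MBD13 had 225 and 197 normalized counts in bamboo and 184, 187 and 200 in Col-0-b (log2 fold change 0.15, SE 0.12). MBD8 had 230 and 264 in bamboo and 251, 224 and 258 in Col-0-b (0.01, SE 0.12). MBD3 and MBD12 had 0 reads in all 8 libraries, which allows up to 0.123 to 0.220 CPM by counting error (3 reads a library).

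The other MBD genes, partners of MBD proteins, and genes that write, remove or read DNA methylation were compared with the same fit. Of these 52 genes, 45 were tested. limma called 0 of them higher and 0 lower; at an unadjusted p under 0.05 there were 0 higher and 4 lower, against 8.60% and 8.21% of all features. edgeR and DESeq2 on the recovered reads also called 0, although DESeq2 gave no adjusted p for 27 of the 52. With a replicate block limma called 3 lower, MET1, CMT2 and CMT3, where 1.87% of all features were called lower. Replicate 1 exists only in Col-0-b, so the block gives the same fold changes as leaving that library out. Leaving it out called 0 of these genes. Without bamboo replicate 3, where bamboo replicate 2 is the lone library of its genotype, limma called 7 lower: MET1, CMT2, CMT3, DCL3, RDR2, AGO4 and PIE1, named after their values were seen. In that setting 5.22% of all features were called lower, and without bamboo replicate 2 it called 0 of the 45.

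Of the 22 tested writers of DNA methylation, 21 had negative fold changes, against 10155 of 20274 features. Their median was -0.17, against 0.00 over all features. The list holds DNA methyltransferases and also other genes needed for methylation, such as DDM1, VIM1, SUVH4, NRPD1 and RDR2, so not every member is a methylating enzyme. MET1, the enzyme that maintains CpG methylation, had 789 and 1070 normalized counts in bamboo replicates 2 and 3. It had 1207, 1176 and 1260 in Col-0-b, so bamboo lay below with no overlap. The fitted difference was -0.40 on the log2 scale (SE 0.11), with an adjusted p from limma of 0.148. In Col-0, MET1 was at 58.7, 46.8 and 56.1 CPM. That range overlapped both Col-0-b (58.2, 56.2 and 60.8 CPM) and bamboo (37.2 and 51.9 CPM). DCL3, the Dicer that makes small RNAs for RNA-directed DNA methylation, had 117 and 208 in bamboo and 200, 205 and 233 in Col-0-b (-0.44, SE 0.21, adjusted p = 0.326).

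Besides MET1, the members with an unadjusted p under 0.05, named after their values were seen, were the chromomethylases CMT3 (-0.37, adjusted p = 0.179) and CMT2 (-0.33, adjusted p = 0.253), which methylate non-CpG sites, and AGO4 (-0.30, adjusted p = 0.124), which binds the small RNAs (all limma). Groups did not overlap for 8 of the 22 writers, all with bamboo below, against 17.5% of all features. The shift was mostly that of bamboo replicate 2, with a median of -0.29 and 20 of 22 members below the Col-0-b mean. In bamboo replicate 3 the median was -0.05, with 15 of 22 below. Between Col-0 and Col-0-b the median log2 difference of the writers in CPM was 0.02. CMT3 was lower in Col-0 there, at -0.40, and no test was made.

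Markers of dividing cells had values of the same sign: 11 of 12 had negative fold changes, with a median of -0.19. In limma 0 were called, with 5 lower and 0 higher at an unadjusted p under 0.05, a cut that 8.21% and 8.60% of all features passed. Groups did not overlap for 7 of the 12, all with bamboo below, against 17.5% of all features. Their summed level was 304 to 351 CPM in bamboo, 353 to 394 in Col-0-b and 334 to 378 in Col-0, and their medians were -0.26 in bamboo replicate 2 and -0.09 in replicate 3. Root markers also had a negative median, -0.14 (7 of 10 below 0), at -0.24 in bamboo replicate 2 and -0.08 in replicate 3. They ran from -0.58 for the auxin carrier PIN2 (EIR1 in the gene table) to 0.30 for MYB36, a regulator of the Casparian strip, both named after their values were seen, and 0 were called. At an unadjusted limma p under 0.05, 2 root markers were higher and 2 lower. Groups did not overlap for 2 of the 10 with bamboo above and 3 with bamboo below, against 17.1% and 17.5% of all features. The part of either marker list in the writers' values was not tested. CYCB1;1, a mitotic cyclin named after its values were seen, stood at -0.34 on the log2 scale (SE 0.13), with an adjusted p from limma of 0.232.

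Partners of MBD proteins showed no common shift, with 7 of 15 tested above 0, 8 below and a median of 0.00. The largest values were -0.21 (SE 0.11, limma adjusted p = 0.336) for PIE1, the motor of the remodeller that deposits H2A.Z, and 0.20 (SE 0.12, adjusted p = 0.398) for HTA11, an H2A.Z histone. PIE1 had 655 and 865 normalized counts in bamboo replicates 2 and 3 and 867, 875 and 873 in Col-0-b, so that, as for MBD9, replicate 2 was the low library. HDA6 had 883 and 913 in bamboo and 1003, 912 and 917 in Col-0-b, an overlap. None of the 6 DNA demethylases and other methyl readers was called, at 2 above 0 and 4 below (unadjusted p under 0.05 in 0). The list differed between the bamboo libraries, with 6 of 6 below the Col-0-b mean in replicate 2 (median -0.21) and 0 of 6 below it in replicate 3 (median 0.15). The largest was DML3, a demethylase, at -0.15 (SE 0.29, adjusted p = 0.834), then SUVH3, a methyl-DNA reader, at -0.09 (SE 0.09, adjusted p = 0.650).

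**Figure D4:**
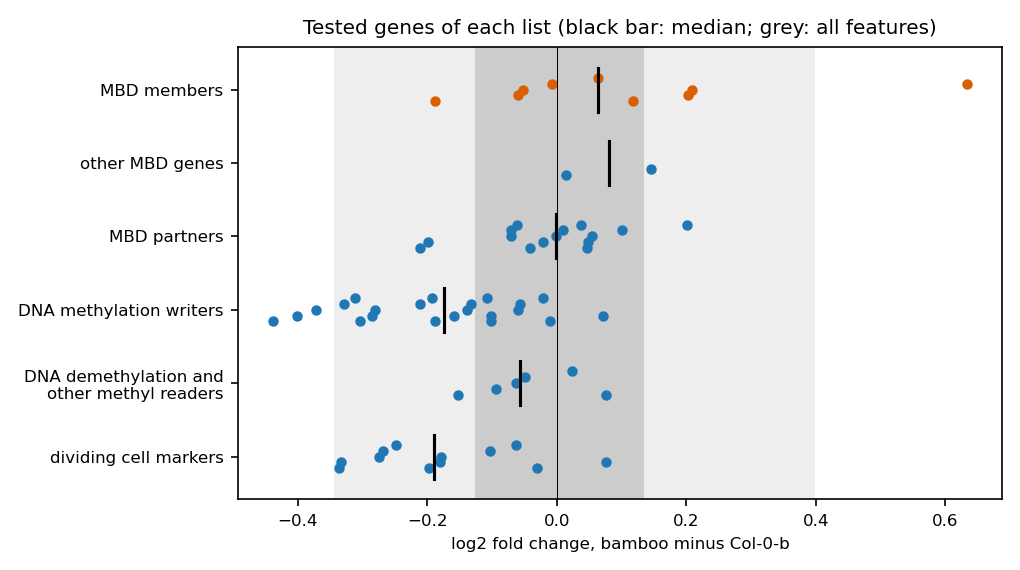
Log2 fold change between bamboo and Col-0-b (horizontal axis) for each tested gene of the MBD family, its partners and the DNA methylation lists, with the dividing cell markers; black bars are list medians and grey bands are the 5th to 95th and 25th to 75th percentiles of all features. MBD10 (0.63) is alone at the right, while 21 of 22 methylation writers and 11 of 12 dividing cell markers lie below 0.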

How the data were processed

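Per the labels, root RNA libraries were made with a stranded mRNA kit and read as single ends. The submitters' processing notes name Trimmomatic, STAR 2.7.2a, featureCounts (Subread 1.6.5) and TAIR10; which strand setting was used is not stated in the sources used here. The authors deposited raw counts for Col-0. The table with bamboo and Col-0-b holds a normalized signal deposited by the authors: counts of each gene over a library-wise size factor. Every value was a whole multiple of one step (100% within 0.01 reads), so reads were recovered. In Col-0-b replicate 1 that step was close to 1. Its WT columns were read as Col-0-b, the wild type paired with bamboo. Another 6 columns of the count table, whose names match no one labelled line, were not used.

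Features reaching 10 normalized counts in 2 or more libraries (20274) were fitted with limma 3.58.1 (R 4.3.3; trended, robust) on log2(normalized count + 1), with a single term for group; p-values were adjusted by Benjamini-Hochberg over all features (threshold 0.05). A positive fold change means higher in bamboo; the scale is that of the fit, which understates low genes. The fit was tested on simulated counts whose spread was set by a formula and not estimated from these libraries. That run does not show how reliable the calls are here. Alternatives used edgeR 4.0.16 and DESeq2 1.42.0 on recovered reads, among others. CPM are read counts scaled by the total of a library. Symbols came from a RefSeq gene table (TAIR10.1; 37051 features matched), which writes MBD2 as MBD02. The members and gene lists were chosen with earlier results of these data known. Named genes were the 9 members, every listed pathway gene that passed, the 2 largest values per list among those that did not, and the 5 features most like MBD10. A planned search for CCAAT boxes in promoters was not run, and levels were not compared between genes, since no lengths of the counted exons were used.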

Additional observations from a re-analysis of the deposited data

How the results depend on the processing

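The alternatives reuse the libraries whose values led to the choice of the family, so they describe MBD10 and do not support it: its log2 fold change ran from 0.58 to 0.69 over 11 of them, and it was not called without Col-0-b replicate 1. Leaving out single Col-0-b libraries gave 0 to 1 members called higher and 0 called lower, against 6 to 26 and 4 to 13 of all features. Without bamboo replicate 3, which leaves 1 bamboo library, MBD4 had a log2 fold change of 0.41 and MBD9 of -0.38. For the 52 genes of the 4 other lists (other MBD genes, MBD partners, methylation writers, demethylases and other readers) the count called lower was 0 to 7 with single libraries left out (7 without bamboo replicate 3, of which PIE1 is an MBD partner and 6 are methylation writers) and was 3 with a replicate block. Over all features, 14 higher and 13 lower became 46 and 29 with no filter on low values, 182 and 135 with DESeq2 and 513 and 379 with a replicate block, and spanned 6 to 894 and 4 to 1052 with single libraries left out. The genotypes share only 2 replicate numbers, whose differences correlated at 0.08 across features, so the numbers were not taken as pairs. MBD10 had 0.65 under the block, the same value as without Col-0-b replicate 1. The cause of these changes in counts was not tested.

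Of 94 member values under the alternatives, 83 kept direction and side of the threshold. The sign turned in 8, all of members that were not called and all with a single library left out. Over those settings MBD2 ran from -0.023 (without bamboo replicate 2) to 0.15, MBD5 from -0.18 to 0.077 (positive without bamboo replicate 2 or Col-0-b replicate 3), MBD6 from -0.15 to 0.033 (positive without bamboo replicate 3 or Col-0-b replicate 3), MBD7 from -0.019 to 0.011 (positive without bamboo replicate 3 or Col-0-b replicate 2) and MBD9 from -0.38 to 0.0014 (positive without bamboo replicate 2). DESeq2 gave no adjusted p for 5 members. Counts of negative values, added after seeing the data, ran from 15 to 21 of 22 for the methylation writers and from 10 to 12 of 12 for the dividing cell markers; without bamboo replicate 2 the medians were -0.05 and -0.09. The alternative window for CCAAT boxes was not run. Depth limits MBD5 most, at 67 to 259 reads a library.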

Other observations

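The 5 features whose log2(CPM + 1) followed MBD10 most closely over the 8 libraries of Col-0, Col-0-b and bamboo were AT1G13930 (Pearson r = 0.997), AT2G34310 (0.996), KELP, a transcriptional coactivator (0.995), AT5G07322 (0.993) and AT3G27350 (0.993). The libraries fall into sets from 2 tables, which those values share, and 638 features reached an r of at least 0.95, so this is a description. The mean of each of the 5 in bamboo lay between those of the wild-type sets, as it did for MBD10. Their log2 values in Col-0 were above those in Col-0-b by 0.90, 0.76, 1.10, 1.15 and 1.22, against 1.67 for MBD10. Their log2 fold changes in bamboo against Col-0-b were 0.37, 0.31, 0.40, 0.37 and 0.40, against 0.63, and none was called by limma.

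Of the genes next to MBD10 in the RefSeq table, AT1G15330 had a log2 fold change of 0.54 in bamboo, the same sign as MBD10. That value is past the 95th percentile of all features (0.40). AT1G15350 had 0.03. Neither passed the limma threshold, which 0.0691% of all features passed as higher. A neighbour this high was not particular to MBD10. AT5G59370, next to MBD6, had 0.55 and was not called, while MBD6 itself was at -0.06.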
